A study of Mus musculus with 16 samples.

Results

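The granins and the enzymes that process prohormones were followed as a set of 10 genes, Chga, Chgb, Scg2, Scg3, Scg5, Vgf, Pcsk1n, Pcsk1, Pcsk2 and Cpe, chosen by name from the 55385 genes measured. All 10 passed the filter on low counts and were among the 17222 genes tested. RNA was sequenced from primary hippocampal cultures of newborn C57Bl/6N mice in 16 libraries, 4 for each of 4 groups, and the study describes the 4 libraries of a group as separate neuronal preparations. All cultures were infected with recombinant adeno-associated virus that expressed a short hairpin RNA from the U6 promoter and GFP from a chicken beta-actin promoter. The groups were Control-shRNA at baseline, Control-shRNA with 4 h of bicuculline, Dnmt3a1-shRNA at baseline and Dnmt3a1-shRNA with 4 h of bicuculline. Bicuculline is an antagonist of GABA-A receptors, which frees the network from inhibition and makes it fire more, and Dnmt3a1 is the long isoform of the DNA methyltransferase Dnmt3a. A single Dnmt3a1 hairpin was sequenced against a single control hairpin, so an effect of Dnmt3a1 and an effect particular to that hairpin cannot be told apart here. The comparisons asked how these genes responded to network activity and whether their levels depended on Dnmt3a1.

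Neuropeptides and neurotrophins are made as larger precursors and packed into dense-core vesicles, which neurons release under strong or repeated activity. Granins are acidic proteins that help cargo to gather and vesicles to form in the trans-Golgi network, and several of them are themselves cut into bioactive peptides. Prohormone convertases cut precursors after pairs of basic residues, carboxypeptidase E then trims the exposed basic residues, and small binding proteins hold each convertase in check or guide its folding. Chga and Chgb encode chromogranins, Scg2 encodes secretogranin II, Scg3 encodes a granin that links chromogranin A to the vesicle membrane, and Vgf encodes a secreted peptide precursor named for its induction by nerve growth factor. Pcsk1 and Pcsk2 encode the 2 neuroendocrine convertases, Pcsk1n encodes proSAAS, an inhibitor of the Pcsk1 product, Scg5 encodes the chaperone of the Pcsk2 product, and Cpe encodes carboxypeptidase E.

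Each gene is protein coding, and all positions are on GRCm38 with GENCODE release M21. The granin genes are Chga (ENSMUSG00000021194.6, chr12:102554969-102565028, plus strand), Chgb (ENSMUSG00000027350.8, chr2:132781278-132795079, plus strand), Scg2 (ENSMUSG00000050711.7, chr1:79434669-79440120, minus strand), Scg3 (ENSMUSG00000032181.7, chr9:75643189-75684056, minus strand) and Vgf (ENSMUSG00000037428.14, chr5:137026392-137033351, plus strand). The processing genes are Pcsk1 (ENSMUSG00000021587.5, chr13:75089826-75134861, plus strand), Pcsk2 (ENSMUSG00000027419.9, chr2:143546156-143816285, plus strand) and Cpe (ENSMUSG00000037852.8, chr8:64592542-64693054, minus strand), with the binding proteins Scg5 (ENSMUSG00000023236.7, chr2:113776362-113829121, minus strand) and Pcsk1n (ENSMUSG00000039278.10, chrX:7919822-7924410, plus strand). Exons of Pcsk2 share 260 bases with the antisense gene Pcsk2os1 and 99 bases with Pcsk2os2, and exons of Pcsk1n share 135 bases with Eras on the opposite strand. Reads from those stretches cannot be assigned to a strand here, because the sources used give no strand setting for the quantification.

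Promoter sequence, from 250 bases before to 50 bases after the start in RefSeq (GRCm38.p6), was at hand for 8 of the 10 genes, all but Vgf and Cpe. It was searched on both strands for the palindromic cAMP response element TGACGTCA, its core TGACG, which every full element holds once on each strand, and the AP-1 site TGANTCA, since these elements bind factors that neuronal activity regulates. The full element was found in 3 of the 8 promoters, those of Chgb, Scg2 and Pcsk1, and in 1.79% of 32851 promoters in the table. The core was found in 7 of the 8 and in 20.8% of all promoters, and the AP-1 site in 1 of the 8, that of Pcsk1n, and in 7.81% of all promoters. The stretches below show these elements and the core in Chga for comparison, each 5′ to 3′ on the strand of the gene with the matched letters in capitals. In Chgb (chr2:132781559-132781588, plus strand), Scg2 (chr1:79440076-79440105, minus strand) and Pcsk1 (chr13:75089768-75089797, plus strand) the element begins 72, 68 and 78 bases before the RefSeq start. The GENCODE bounds given above begin further upstream for Chgb and Scg2. By those bounds the elements of Chgb and Scg2 lie inside the gene, and that of Pcsk1 lies before it. In Chga (chr12:102554886-102554912, plus strand) the core begins 44 bases before the start, and in Pcsk1n (chrX:7919577-7919605, plus strand) the AP-1 site begins 234 bases before it.
Scg2: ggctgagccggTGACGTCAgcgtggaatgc
Pcsk1: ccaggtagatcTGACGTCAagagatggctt
Chgb: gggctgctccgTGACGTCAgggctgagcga
Chga: gggcggtcctaTGACGtaatttcctgg
Pcsk1n: tttcagcccacTGAGTCAatttcccttgt
A match of letters is a description of the window and not evidence of a bound site.

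The libraries held 28912697 to 29586355 estimated counts each, so depth differed little. No gene of the set had fewer than 1096 counts in a library. TMM factors ran from 0.871 to 1.12 and differed with the condition. In Control-shRNA they were 1.04 to 1.12 at baseline and lower in every bicuculline library. In Dnmt3a1-shRNA they were 0.963 to 1.08 at baseline and 0.871 to 0.968 with bicuculline, with a narrow overlap. Dnmt3a, counted over all its isoforms, stood at 312 ± 13.8 CPM (TMM-scaled counts relative to a fixed library total; SD, n = 4) in Control-shRNA and 44.5 ± 3.66 CPM in Dnmt3a1-shRNA at baseline, and it was 293 to 338 CPM in all 8 Control-shRNA libraries and 39.4 to 48.0 CPM in all 8 Dnmt3a1-shRNA libraries. The immediate early gene Fos averaged 10.3 ± 3.01 CPM at baseline and 872 ± 139 CPM after stimulation in Control-shRNA, and 15.5 ± 3.13 and 1129 ± 173 CPM in Dnmt3a1-shRNA. Arc averaged 14.8 ± 3.67 and 740 ± 228 CPM in Control-shRNA, and 11.3 ± 3.61 and 766 ± 158 CPM in Dnmt3a1-shRNA. Between the shRNAs at baseline, Fos was higher in Dnmt3a1-shRNA (log2 fold change 0.58, edgeR adjusted p = 0.0437), with groups that overlapped. Arc did not pass there (-0.39, edgeR adjusted p = 0.311). With bicuculline neither passed (Fos 0.37, edgeR adjusted p = 0.136, and Arc 0.05, edgeR adjusted p = 0.903). The study, which used voom with limma, reports both genes as unaltered by the knockdown, unlike the call of Fos at baseline here. Markers matched cultured neurons. The summed level of 6 pan-neuronal markers was 4872 to 6474 TPM (transcripts relative to a fixed total per library, scaled for transcript length) in every library, against 145 to 419 TPM for 6 astrocyte markers, 80.1 to 186 TPM for 6 oligodendrocyte lineage markers, 1.84 to 6.88 TPM for 6 microglial markers and 5.86 to 13.4 TPM for 6 markers of fibroblasts and vessels. For 5 markers of pituitary and adrenal cells, which also use granins, the sum was 1.29 to 2.57 TPM, and Gh was at 0 in every library. In bulk RNA, fewer cells of a type and less RNA per cell cannot be told apart.

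At baseline in Control-shRNA, the processing enzyme Cpe was the most abundant transcript of the set and the convertase Pcsk1 the least abundant. Cpe stood at 1437 ± 34.4 TPM (mean ± SD, n = 4), above 99.6% of tested genes. Pcsk1n followed at 505 ± 75.1 TPM and Vgf at 441 ± 53.4 TPM, and the ranges of these 2 genes overlapped. Scg5, Chga and Scg2 formed a group whose neighbours overlapped, at 237 ± 14.8, 233 ± 9.69 and 216 ± 30.5 TPM. Scg3 at 160 ± 12.6 TPM and Chgb at 143 ± 16.7 TPM overlapped as well. Pcsk2 stood apart at 100.3 ± 8.11 TPM, and Pcsk1 at 28.6 ± 6.80 TPM. The 10 genes together took 3501 ± 109 TPM, of which Cpe held the largest share.

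Bicuculline changed that order. In Control-shRNA with bicuculline, Vgf (1590 ± 93.0 TPM) and Cpe (1532 ± 101 TPM) led with overlapping ranges, and Scg2 came next at 945 ± 136 TPM. Pcsk1 reached 188 ± 41.0 TPM, where its range overlapped those of Chga, Scg5, Scg3 and Chgb. Pcsk2 became the least abundant, at 77.8 ± 4.68 TPM. The level of Pcsk1 relative to Pcsk2 in TPM went from 0.286 ± 0.0721 to 2.43 ± 0.586 in Control-shRNA and from 0.191 ± 0.0274 to 2.54 ± 0.456 in Dnmt3a1-shRNA. The ratio was under 0.345 in every baseline library and over 1.88 in every stimulated one. In Dnmt3a1-shRNA at baseline, Vgf stood sixth by its mean, at 183 ± 85.6 TPM. Its range of 117 to 297 TPM overlapped those of Scg2, Chga, Scg5, Scg3 and Chgb, and narrowly that of Pcsk2, so its place among them is not separated. With bicuculline, Scg2, Vgf and Cpe of that arm overlapped in turn, at 1127 ± 109, 1098 ± 55.0 and 1051 ± 23.7 TPM. The summed level of the set was 5675 ± 212 TPM in stimulated Control-shRNA, 2752 ± 273 TPM in Dnmt3a1-shRNA at baseline and 4782 ± 61.7 TPM in stimulated Dnmt3a1-shRNA.

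**Figure D1:**
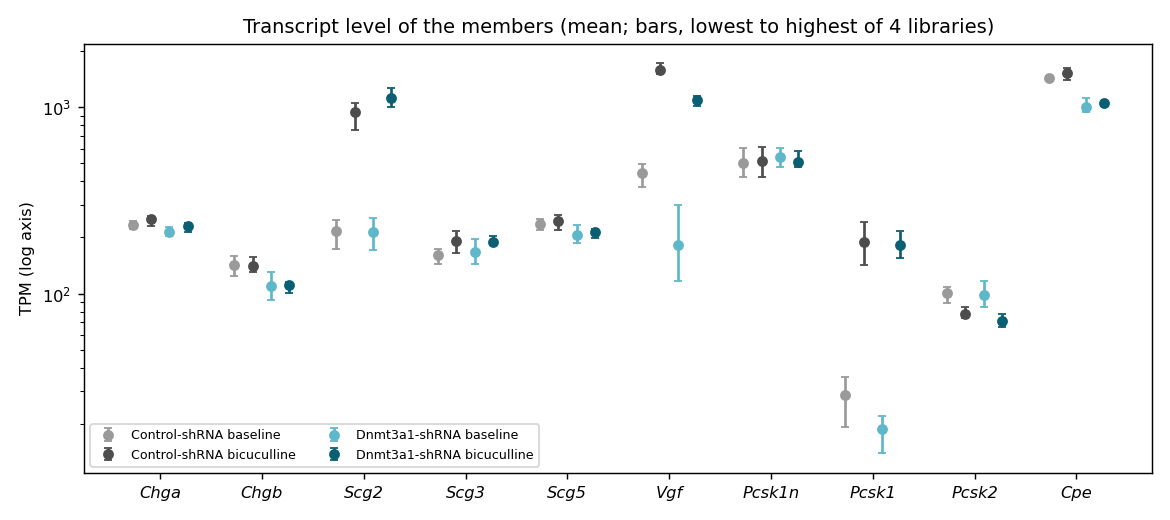
Mean transcript level of the 10 genes in TPM on a log axis, with bars from the lowest to the highest of 4 libraries in each group. Pcsk1, Scg2 and Vgf stand apart between baseline and bicuculline, while Cpe is lower in both Dnmt3a1-shRNA groups than in both Control-shRNA groups.

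The response to bicuculline in Control-shRNA was led by a convertase and 2 granin family precursors. Of the 10 genes, 3 were called higher, Pcsk1, Scg2 and Vgf, and none lower, where a call needed an adjusted p under 0.05 in edgeR's quasi-likelihood test and an absolute log2 fold change over 0.5. Over all genes tested, 21.9% were called in this comparison, 10.8% higher and 11.1% lower. The median log2 fold change of the set was 0.32, against 0.01 over all genes tested, and 0.27 was the median absolute change of all genes.

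Pcsk1, which makes the first cuts in many precursors, read 76.3, 44.4, 63.3 and 83.6 CPM in the 4 baseline libraries of Control-shRNA. With bicuculline it read 696, 379, 457 and 501 CPM. The lowest stimulated library lay far above the highest baseline library. The log2 fold change was 2.93 (SE 0.22, 7.60-fold; edgeR adjusted p = 9.35e-09), the largest of the set and the 127th largest of the 17222 genes by size.

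Scg2, the precursor of secretoneurin, read 249, 187, 227 and 268 CPM at baseline and 1366, 906, 1087 and 1223 CPM with bicuculline in Control-shRNA. The groups did not overlap. Its log2 fold change was 2.30 (SE 0.14, 4.92-fold; edgeR adjusted p = 9.42e-10). Of the 3 promoters printed with the full cAMP response element, those of Scg2 and Pcsk1 belonged to called genes and that of Chgb did not.

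Vgf, whose peptides act on synaptic activity, read 489, 392, 493 and 508 CPM at baseline and 2230, 1835, 1724 and 1756 CPM with bicuculline in Control-shRNA. Here too the groups did not overlap. Its log2 fold change was 2.003 (SE 0.20, 4.01-fold; edgeR adjusted p = 3.63e-07).

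The other genes of the set moved little. Scg3 (log2 fold change 0.39, SE 0.05, edgeR adjusted p = 1.61e-05), Cpe (0.33, SE 0.07, 6.66e-04), Chga (0.31, SE 0.05, 7.25e-05) and Scg5 (0.26, SE 0.06, 0.00214) passed the adjusted p without reaching the fold threshold, and in each of them the stimulated libraries all exceeded the baseline libraries. Together with the 3 called genes, 7 of the 10 had groups that did not overlap in CPM, against 39.7% of all genes. On TPM the ranges of Scg3, Cpe, Chga and Scg5 overlapped, for example Cpe at 1402 to 1478 TPM at baseline and 1407 to 1627 TPM with bicuculline. With adjusted p alone, 7 of the 10 genes were thus higher and none lower, where 41.4% of all genes passed, 19.5% higher and 21.9% lower. Between TMM scaling and library sizes alone the median of all genes shifted to -0.15, and the small rises of Cpe, Chga and Scg5 passed under 7, 7 and 6 of 9 alternatives, with log2 fold changes down to 0.09, 0.11 and 0.05. Scg3 passed under all 9.

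Pcsk1n (0.22, SE 0.11, edgeR adjusted p = 0.127), Chgb (0.19, SE 0.08, 0.0863) and Pcsk2 (-0.15, SE 0.07, 0.0728) did not pass in Control-shRNA. Their baseline and stimulated libraries overlapped in CPM. On TPM those of Pcsk2 did not overlap, at 89.1 to 107.9 TPM at baseline and 74.1 to 84.6 TPM with bicuculline, while those of Pcsk1n and Chgb did. In the fit that blocks on the replicate number, the edgeR adjusted p was 0.0212 for Pcsk1n, 0.0195 for Chgb and 0.0202 for Pcsk2, with log2 fold changes of 0.22, 0.19 and -0.16, so the block carried all 3 past the adjusted p and none past the fold threshold. Counting the block, Chgb and Pcsk1n passed the adjusted p under 1 of 9 alternatives each. Pcsk2 passed under 4 of 9, with log2 fold changes down to -0.36, and in 1 of 16 fits without a library. On log2(TPM + 1) the value for Chgb was -0.020, on the other side of 0. The 95% intervals for Pcsk2, -0.29 to -0.01, and for Pcsk1n, -0.01 to 0.46, left no room for a change of the size seen in Pcsk1.

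**Figure D2:**
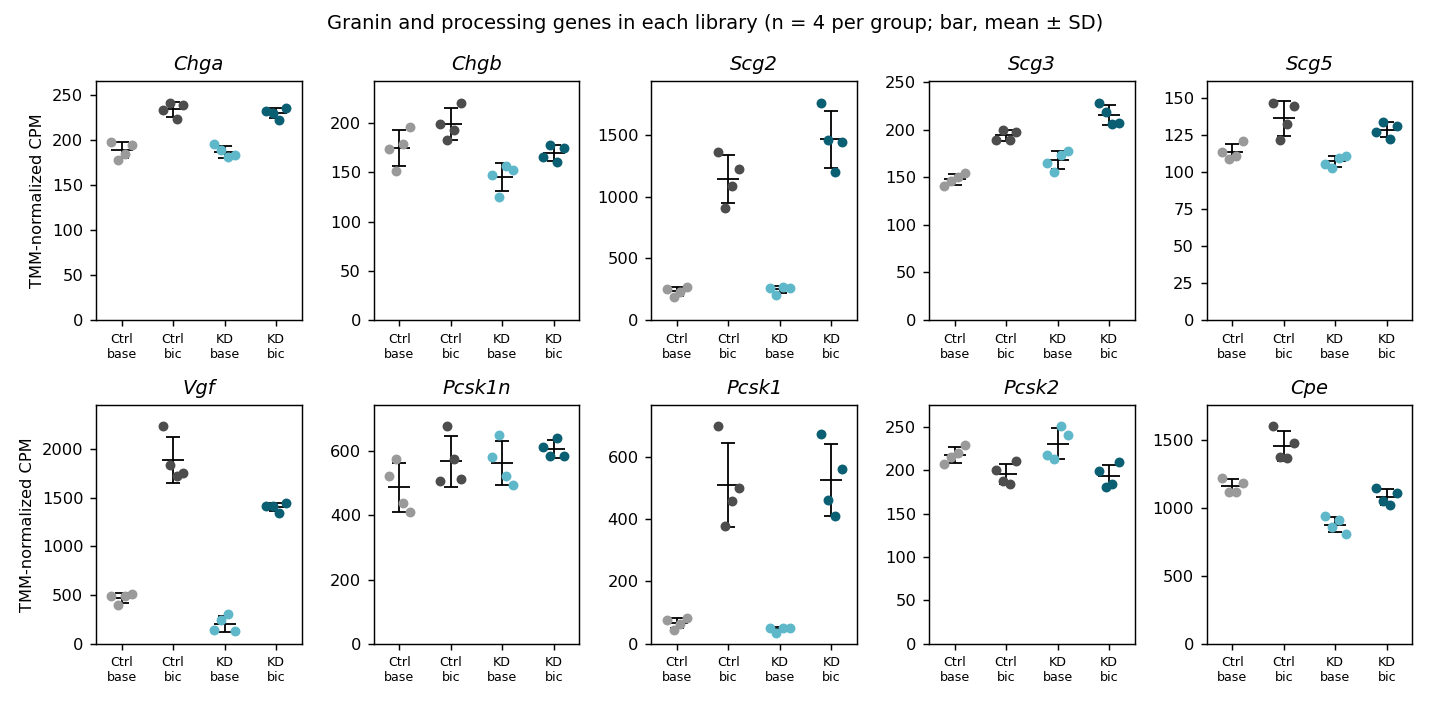
TMM-normalized CPM of each gene in each of the 16 libraries on linear axes that start at 0 (Ctrl, Control-shRNA; KD, Dnmt3a1-shRNA; base, baseline; bic, 4 h bicuculline), with the mean and SD of 4 libraries. In Pcsk1, Scg2 and Vgf the stimulated libraries stand clear of the baseline libraries, and in Cpe the Dnmt3a1-shRNA libraries stand below the Control-shRNA libraries of the same condition.

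In Dnmt3a1-shRNA cultures the same comparison called the same 3 genes higher and none lower, where 25.8% of all genes were called, 12.6% higher and 13.2% lower. Pcsk1 went from 51.1, 35.8, 50.3 and 50.5 CPM to 671, 459, 409 and 561 CPM, with a log2 fold change of 3.48 (SE 0.22, 11.2-fold; edgeR adjusted p = 1.00e-09). Vgf went from 142, 244, 303 and 130 CPM to 1413, 1415, 1340 and 1442 CPM, with a log2 fold change of 2.78 (SE 0.21, 6.85-fold; edgeR adjusted p = 7.25e-09). No stimulated library overlapped a baseline library in either gene. Scg2 went from 256, 205, 267 and 263 CPM to 1763, 1459, 1200 and 1445 CPM, again without overlap, with a log2 fold change of 2.57 (SE 0.14, 5.92-fold; edgeR adjusted p = 1.96e-10).

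By adjusted p alone, 8 of the 10 genes were higher and 1 lower in Dnmt3a1-shRNA, where 46.0% of all genes passed, 20.8% higher and 25.2% lower. In CPM the groups did not overlap in 9 of the 10 genes, against 40.4% of all genes. The 5 small rises were those of Scg3 (0.36), Cpe (0.30), Chga (0.30), Scg5 (0.26) and Chgb (0.22), with standard errors of 0.05 to 0.08. On TPM the baseline and stimulated ranges of all 5 overlapped, for example Cpe at 944 to 1124 TPM and 1021 to 1075 TPM. Scg3, Cpe and Chga passed the adjusted p under 7 of 9 alternatives each, Scg5 under 6 and Chgb under 5, with log2 fold changes down to 0.18, 0.07, 0.11, 0.06 and 0.03. Chgb, at an edgeR adjusted p of 0.0383, passed in 11 of 16 fits that each left out a library. Pcsk2, the convertase that acts after Pcsk1 in many pathways, was the one that fell, by 0.25 on the log2 scale (SE 0.07, edgeR adjusted p = 0.00431), with the stimulated libraries all below the baseline libraries. It read 218, 213, 251 and 241 CPM at baseline and 199, 181, 185 and 209 CPM with bicuculline. This fall passed the adjusted p under all 9 alternatives and in all 16 fits without a library. Pcsk1n did not pass (0.11, SE 0.11, edgeR adjusted p = 0.457), and its sign turned to -0.039 with library sizes alone.

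**Figure D3:**
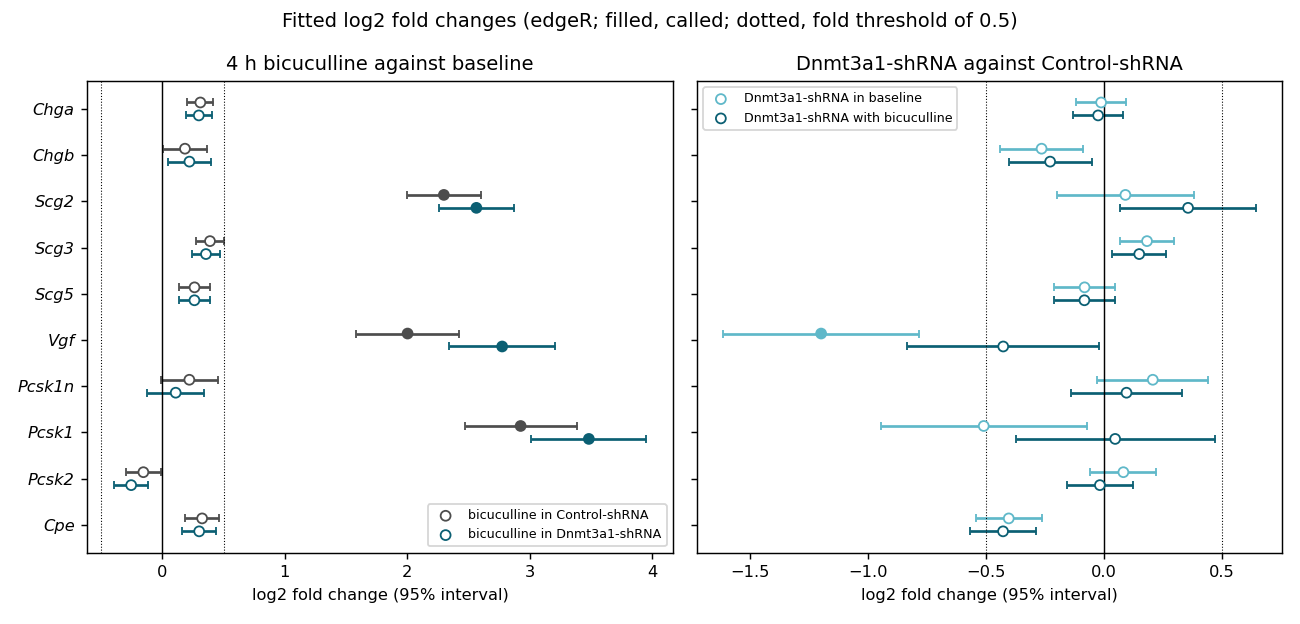
Fitted log2 fold changes of the 10 genes with 95% intervals, for bicuculline against baseline on the left and Dnmt3a1-shRNA against Control-shRNA on the right; filled points were called and dotted lines mark the fold threshold of 0.5. Pcsk1, Scg2 and Vgf lie between 2.003 and 3.48 on the left, and Vgf at baseline is the one filled point on the right, at -1.20.

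Vgf was lower in Dnmt3a1-shRNA at baseline, and no other gene of the set was called. Over all genes, 5.83% were called in this comparison, 1.76% higher and 4.07% lower. Vgf read 489, 392, 493 and 508 CPM in Control-shRNA and 142, 244, 303 and 130 CPM in Dnmt3a1-shRNA. The 4 knockdown libraries all lay below the lowest control library, though they spread more widely among themselves. The log2 fold change was -1.20 (SE 0.20, 0.435-fold; edgeR adjusted p = 4.23e-04), the 151st largest of 17222 by size. It stayed called in each of 9 alternatives and in each of 16 fits without a library, between -1.45 and -1.03. The median log2 fold change of the set was -0.05 and that of all genes 0.01.

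Cpe was lower in Dnmt3a1-shRNA in both conditions, by less than the fold threshold. At baseline it read 1224, 1119, 1120 and 1186 CPM in Control-shRNA and 940, 858, 909 and 807 CPM in Dnmt3a1-shRNA. All knockdown libraries lay below all control libraries. Cpe fell by 0.40 on the log2 scale (SE 0.07, 0.756-fold; edgeR adjusted p = 4.21e-04). With bicuculline it read 1601, 1378, 1368 and 1478 CPM in Control-shRNA and 1149, 1053, 1019 and 1109 CPM in Dnmt3a1-shRNA, again without overlap, and it fell by 0.43 (SE 0.07, 0.743-fold; edgeR adjusted p = 2.56e-04). Cpe passed the adjusted p under all 9 alternatives and all 16 fits without a library in both conditions, and on log2(TPM + 1) its values were -0.52 and -0.54, past the fold threshold.

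Of the rest at baseline, Chgb was lower (-0.26, SE 0.08, edgeR adjusted p = 0.0381), with groups that overlapped, and Scg3 was higher (0.18, SE 0.05, edgeR adjusted p = 0.0281), with all 4 knockdown libraries above all 4 control libraries. Neither reached the fold threshold, and the adjusted p was no longer passed when single libraries were left out, in 6 of 16 fits for Chgb and 5 of 16 for Scg3. Chgb passed under all 9 alternatives of scaling, filter, tool and block, and Scg3 under 5 of them, with a value of 0.05 on log2(TPM + 1) (limma adjusted p = 0.775). In all, 4 of the 10 genes passed the adjusted p alone, 1 higher and 3 lower, against 16.3% of all genes, 8.12% higher and 8.19% lower. In CPM the groups did not overlap in 3 of the 10 genes, Vgf, Cpe and Scg3, against 19.9% of all genes. On TPM those of Scg3 overlapped, at 144 to 173 TPM in Control-shRNA and 145 to 196 TPM in Dnmt3a1-shRNA. Pcsk1 had a log2 fold change of -0.51 (SE 0.21, edgeR adjusted p = 0.107), and its groups overlapped through the Control-shRNA library with 44.4 CPM. Without that library, replicate 2 of the group, Pcsk1 was called at -0.66 (edgeR adjusted p = 0.0327), and with the replicate block it was at -0.49 (edgeR adjusted p = 0.00256), past the adjusted p and short of the fold threshold. Chga (-0.01, 95% interval -0.12 to 0.09), Scg2 (0.09, -0.20 to 0.38), Scg5 (-0.08, -0.21 to 0.05), Pcsk2 (0.08, -0.06 to 0.22) and Pcsk1n (0.21, -0.03 to 0.44) did not pass, and their intervals exclude a drop as large as that of Vgf.

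With bicuculline, none of the 10 genes was called between the shRNAs, where 5.89% of all genes were called by edgeR, 2.0% higher and 3.90% lower. By adjusted p alone Cpe was lower and none was higher, against 17.7% of all genes, 7.69% higher and 9.99% lower. At an unadjusted p under 0.05 were 5 of the 10, Cpe, Chgb, Scg2, Scg3 and Vgf, beside 5367 of the 17222 genes tested, and DESeq2 and voom called none as well. Vgf read 2230, 1835, 1724 and 1756 CPM in Control-shRNA and 1413, 1415, 1340 and 1442 CPM in Dnmt3a1-shRNA. The groups did not overlap, as in 4 of the 10 genes (Vgf, Cpe, Chgb and Scg3) and in 20.9% of all genes, yet the log2 fold change of -0.43 (SE 0.19, 95% interval -0.83 to -0.02) did not pass (edgeR adjusted p = 0.140, and 0.0859 with the replicate block). Chgb (-0.23, edgeR adjusted p = 0.0683), Scg3 (0.15, 0.0662) and Scg2 (0.36, 0.0808) did not pass either. With the replicate block these 3 had edgeR adjusted p of 0.0131, 0.0368 and 0.0041, at log2 fold changes of -0.22, 0.15 and 0.37. The difference in Scg3 turned from 0.15 to -0.026 on log2(TPM + 1), and its groups overlapped on TPM.

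The response to bicuculline was also set between the shRNAs directly, as the interaction. No gene of the 17222 passed in the main edgeR fit (0%), with 852 genes (4.95%) at an unadjusted p under 0.05. DESeq2 called 18 genes and voom 0. With the replicate block edgeR called 3 genes, with 1564 at an unadjusted p under 0.05. With no filter on low counts it called 3 of 37314. None of the genes called was in the set. Vgf had the largest difference of the set, 0.77 on the log2 scale more in Dnmt3a1-shRNA (SE 0.27, 95% interval 0.20 to 1.35), with an unadjusted p of 0.0117 and an edgeR adjusted p of 0.871. Pcsk1 followed at 0.56 (SE 0.29, interval -0.05 to 1.16) and Scg2 at 0.27 (SE 0.19, interval -0.14 to 0.67), both at an edgeR adjusted p of 1. For the other 7 genes the difference lay between -0.11 and 0.04. A drop in Vgf that depends on the condition was therefore not shown, although Vgf was called at baseline and not with bicuculline.

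Marker levels of GABAergic neurons are set beside these results. The summed level of Gad1, Gad2, Slc32a1, Dlx1 and Dlx2 was 978 to 1130 TPM in Control-shRNA at baseline, 1257 to 1425 TPM in Control-shRNA with bicuculline, 657 to 849 TPM in Dnmt3a1-shRNA at baseline and 972 to 1134 TPM in Dnmt3a1-shRNA with bicuculline. Of these 5 genes, 3 were called higher with bicuculline in each shRNA and none was called between the shRNAs, where 1 passed the adjusted p at baseline and none with bicuculline. Of the 6 astrocyte markers, which matter because glia also make Cpe, none was called in any comparison, and their median log2 fold change between the shRNAs was 0.40 at baseline and 0.42 with bicuculline. The 5 excitatory markers summed to 1577 to 1678, 1196 to 1413, 1332 to 1535 and 1025 to 1337 TPM in the same order of groups. Single excitatory markers went both ways with bicuculline. In Control-shRNA, Slc17a6 was called higher (1.54) and Neurod6 lower (-1.29), with a median of 0.04. In Dnmt3a1-shRNA, 1 was called higher and 1 lower, with a median of 0.03. Between the shRNAs none was called, with medians of 0.12 at baseline and 0.24 with bicuculline. Slc17a6 was higher past the adjusted p at baseline (0.48, edgeR adjusted p = 0.0454) and with bicuculline (0.47, edgeR adjusted p = 0.0385). In both conditions Neurod6 and Tbr1 were higher and Slc17a7 and Camk2a lower, none of them past the adjusted p. The part of these markers in the levels of Vgf, Cpe and the other genes was not tested.

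Other enzymes of the pathway were followed as a list of 16, all of them tested. With bicuculline, 5 were called higher and 1 lower in each shRNA, with medians of 0.24 in Control-shRNA and 0.20 in Dnmt3a1-shRNA. Over all genes, 10.8% were called higher and 11.1% lower in Control-shRNA, and 12.6% and 13.2% in Dnmt3a1-shRNA. Pam, which amidates the ends of peptides, rose by 1.37 on the log2 scale in Control-shRNA (SE 0.11, edgeR adjusted p = 3.09e-08) and by 1.60 in Dnmt3a1-shRNA. Pcsk6, a convertase of the constitutive pathway, rose by 1.51 and 1.65. Cpd, a carboxypeptidase of the Golgi, rose by 0.64 in Control-shRNA and by 0.49 in Dnmt3a1-shRNA, where it passed the adjusted p and fell short of the fold threshold. The carboxypeptidase Cpm rose by 0.64 in Dnmt3a1-shRNA and by 0.46, short of the fold threshold, in Control-shRNA. Mbtps1, the site-1 protease that cuts SREBP and ATF6, fell by 1.06 and 1.19. Between the shRNAs at baseline, Cpd was higher by 0.61 (SE 0.14, edgeR adjusted p = 0.00588), while Pcsk4 (-0.77) and Cpm (-0.58), a membrane carboxypeptidase, were lower, so that 1 was called higher and 2 lower with a median of 0.01, beside 1.76% and 4.07% of all genes. With bicuculline, Pcsk4 alone of the 16 was called between the shRNAs, at -0.79, beside 5.89% of all genes in either direction.

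The machinery that forms, moves and releases dense-core vesicles was followed as a list of 21 genes. Of these, 1 was called higher with bicuculline in Control-shRNA and 2 in Dnmt3a1-shRNA, beside 10.8% and 12.6% of all genes, with medians of 0.08 and 0.00. Syt4, a synaptotagmin carried on dense-core vesicles, rose by 2.22 (SE 0.15, edgeR adjusted p = 2.39e-09) and 2.14, and Ptprn, a protein of the vesicle membrane, by 0.56 in Dnmt3a1-shRNA. Between the shRNAs, Rab27b, a small GTPase of vesicle docking, was lower by 1.38 at baseline (log2 fold change -1.38, SE 0.13, edgeR adjusted p = 1.03e-06) and also with bicuculline (-1.49). Myo5a, the motor that carries vesicles along actin, was also lower in both (-0.63 and -0.71), and Syt10 with bicuculline (-0.78). The list held 2 calls at baseline and 3 with bicuculline, all lower, beside 4.07% and 3.90% of all genes called lower, with medians of -0.02 and -0.06.

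The cargo was followed as a list of peptide precursors and neurotrophins. Of 20 peptide and neurotrophin genes 18 were tested, Gal and Trh being too low, with at most 12 and 8 counts in a library. With bicuculline 12 were called higher and 1 lower in each shRNA, with medians of 0.81 and 1.14, where 10.8% and 12.6% of all genes were called higher and 11.1% and 13.2% lower. Penk, the enkephalin precursor, rose by 3.82 (SE 0.16, edgeR adjusted p = 4.65e-12) in Control-shRNA and by 4.18 in Dnmt3a1-shRNA, and Bdnf, a neurotrophin cut by convertases, by 2.53 and 2.91. Adcyap1, which encodes PACAP, rose by 2.33 and 2.22, and Crh by 1.83 and 3.16. Between the shRNAs at baseline 6 were called lower and none higher, with a median of -0.09, where 4.07% of all genes were called lower. These 6 included Cort (-1.52), Npy (-1.05), Bdnf (-0.74) and Pnoc (-0.69). Cort and Npy belong to interneurons, and the GABAergic marker values above stand beside them. With bicuculline 2 were called lower, Cort (-0.93) and Npy (-0.78), and 1 higher, Crh (1.38, SE 0.20, edgeR adjusted p = 1.65e-04), where 3.90% of all genes were called lower and 2.0% higher.

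**Figure D4:**
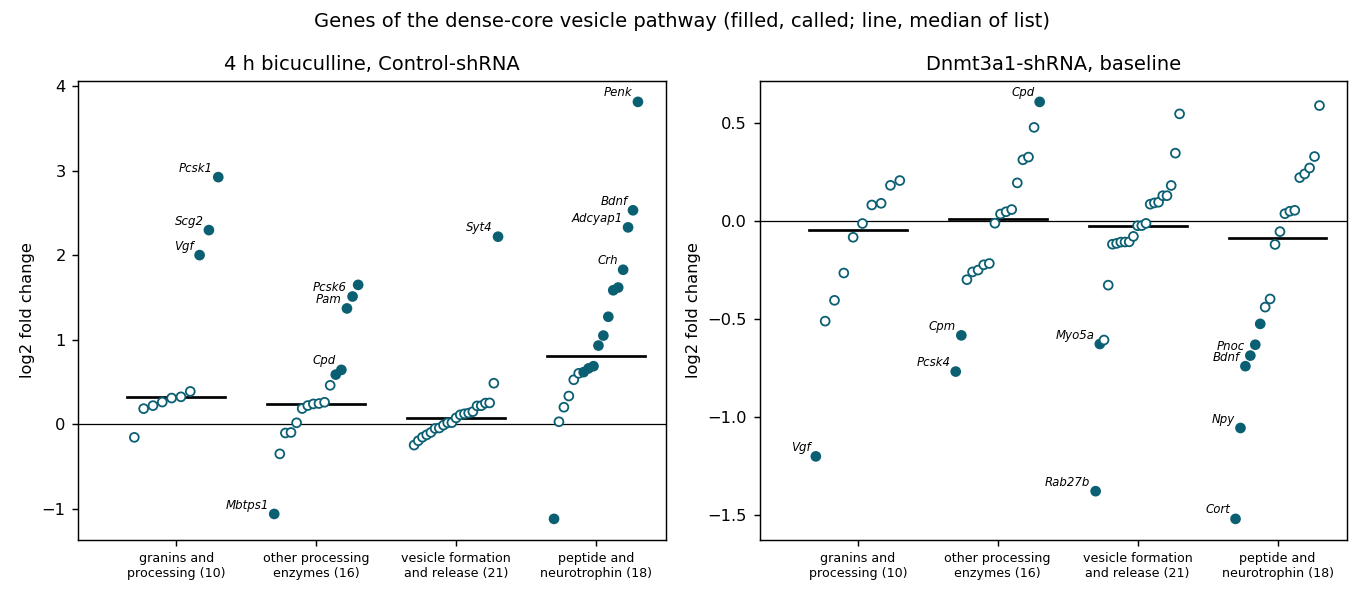
Log2 fold changes of the granin and processing genes and of 3 other lists of the dense-core vesicle pathway, for bicuculline in Control-shRNA on the left and Dnmt3a1-shRNA at baseline on the right, with filled points for called genes and a line at the median of each list. On the left the medians are 0.32, 0.24, 0.08 and 0.81, and on the right they lie between -0.09 and 0.01.

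The genes whose pattern over the 16 libraries was most like that of Pcsk1, the gene with the largest change with bicuculline, were Pam (Pearson's r 0.998), Ptp4a2 (0.995) and Nrn1 (0.995) out of the 9238 genes that averaged 10 CPM or more. After the group means were removed, r was 0.963, 0.893 and 0.896. Those most like Vgf, the gene with the largest change with Dnmt3a1-shRNA, were Etv5 (0.992), Ptgs2 (0.978) and Atf6 (0.977), with 0.921, 0.492 and 0.454 within groups. These correlations run across libraries that share their stimulation, hairpin and preparation, and are given as a description.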

How the data were processed

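RNA of 16 mouse hippocampal culture libraries was analysed from the files that the authors deposited. Per the labels and the study's methods, the authors trimmed reads with Trim Galore (0.6.4), quantified them with kallisto (0.4.6 in the submitters' processing notes) and summed transcripts to genes. The authors deposited estimated counts per gene, not scaled for depth, and TPM, scaled for transcript length and library total. Genes were matched to GENCODE M21 by identifier, where 55144 of 55385 matched without the version.

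The 10 genes and the lists were chosen with earlier results of these data known. Genes named from a list are up to 4 called genes with the largest change at a mean of at least 1 CPM. Counts were rounded and fitted in edgeR 4.0.16 (R 4.3.3) with TMM, its filter on low counts by group, and 1 quasi-likelihood model of the 4 groups, with Benjamini-Hochberg adjustment over 17222 genes. The adjusted p threshold was 0.05 and the log2 fold threshold 0.5, and the interaction was called by adjusted p alone. TPM was used to set levels of genes side by side and, as log2 with a pseudocount of 1 or 0.1, in limma 3.58.1. DESeq2 1.42.0, voom, other scalings and filters, a replicate block and leaving out each library were alternatives. On simulated counts of bicuculline in Control-shRNA over 16949 genes, 90 of 100 genes changed by 1 on the log2 scale and 80 of 100 changed by 0.8 were recovered, with 5 unchanged genes called. These counts were drawn from edgeR's own fitted spread, with few changed genes and no deviations shared by replicate number. They check the code in that setting and do not give error rates for the real libraries.

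No 2 libraries of a group agreed within sampling noise (chi-square divided by its degrees of freedom, 7.92 to 44.7). Libraries with the same number deviated together from their groups, with r over 17222 genes of 0.224 to 0.345 across stimulation in Control-shRNA, 0.0949 to 0.477 in Dnmt3a1-shRNA, 0.313 to 0.490 between the shRNAs at baseline and 0.163 to 0.519 with bicuculline. The pairing rests on this check, since the labels give only shared replicate numbers.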

Additional observations from a re-analysis of the deposited data

Results flagged for a closer look

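Of 40 groups of 4 libraries, 10 genes in each of 4 conditions, 2 held a library far from the other 3 by Dixon's criterion, where chance gives about 1 in 20. Vgf read 392 CPM in Control-shRNA baseline replicate 2, against 489 to 508 CPM in the other 3 libraries. Pcsk1 read 35.8 CPM in Dnmt3a1-shRNA baseline replicate 2, against 50.3 to 51.1 CPM in the others. Both libraries carry the same replicate number.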

How the results depend on the processing

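The calls of Pcsk1, Scg2 and Vgf with bicuculline and of Vgf with Dnmt3a1-shRNA at baseline held under all 9 alternatives of scaling, filter, tool and block and all 16 fits without a library. The count of called genes was 3 to 3 without single libraries for bicuculline in either shRNA, 0 to 0 for Dnmt3a1-shRNA with bicuculline and for the interaction, and 1 to 2 for Dnmt3a1-shRNA at baseline. In the last comparison it was 2 with library sizes only and with no filter, where Pcsk1 joined Vgf (-0.59, edgeR adjusted p = 0.0379, and -0.51, 0.0383), and 2 on log2(TPM + 1) and log2(TPM + 0.1), where Cpe joined; Cpe made it 1 on both TPM scales with bicuculline. With no fold threshold the counts were 7 and 9 for bicuculline in Control-shRNA and Dnmt3a1-shRNA, and 4 and 1 for Dnmt3a1-shRNA at baseline and with bicuculline. With the replicate block the counts stayed at 3, 3, 1, 0 and 0, and no gene of the set changed its call. Library sizes only moved the all-gene median (log2) to -0.15 and -0.16 with bicuculline and to -0.07 and -0.08 between the shRNAs, and the share of lower calls from 50.8% to 69.0%, 51.1% to 67.2%, 69.8% to 85.8% and 66.1% to 80.8%; on log2(TPM + 1) the shares were 71.4%, 69.4%, 90.9% and 85.5%.

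Values that turned sign were all small and uncalled in both settings. On log2(TPM + 1) and log2(TPM + 0.1) these were Chgb with bicuculline in Control-shRNA (-0.0201 and -0.0202), Pcsk1n with bicuculline in Dnmt3a1-shRNA (-0.0797 and -0.0798), Scg2 (-0.0201 and -0.0202) and Pcsk2 (-0.0372 and -0.0376) between the shRNAs at baseline, and Scg3 (-0.0260 and -0.0261), Pcsk1 (-0.0408 and -0.0409) and Pcsk1n (-0.0001 in both) between them with bicuculline. With library sizes only they were Pcsk1n with bicuculline in Dnmt3a1-shRNA (-0.0389) and Pcsk1 between the shRNAs with bicuculline (-0.0252). The interaction of Scg5 was 0.0019 with voom, 0.0073 with DESeq2 and with its size factors, 0.0085 with library sizes only, 0.0110 with at least 10 counts in every library, 0.0080 and 0.0081 on the TPM scales and 0.0013 with the replicate block. Without single libraries, values ranged from -0.0400 to 0.0104 for Chga and from -0.0014 to 0.1717 for Scg2 between the shRNAs at baseline, and from -0.0940 to 0.2339 for Pcsk1 and from -0.0616 to 0.0278 for Pcsk2 with bicuculline. The interaction ranged from -0.0357 to 0.0148 for Chga, -0.0301 to 0.1015 for Chgb, -0.0526 to 0.0389 for Scg5 and -0.0631 to 0.0228 for Cpe. The cause of these turns was not tested.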
